A study of Mus musculus with 9 samples.

Results

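The vomeronasal receptor genes are the rows of the deposited table of transcription start site (TSS) accessibility whose symbol is Vmn1r or Vmn2r followed by digits alone. That rule gave 116 of the 33844 TSS regions, 88 of them Vmn1r and 28 Vmn2r. Pseudogenes with a "ps" in the symbol were not members. The values come from ATAC-seq, in which a transposase cuts open chromatin and adds sequencing adapters to it, on nuclei of mouse heart muscle cells. The mice were of the outbred strain CD1 (ICR), and the stages were postnatal days 1, 14 and 56 (P1, P14 and P56), with 3 libraries each. Each library was made from pooled hearts, 12 at P1 and 6 to 7 at the later stages, and the nuclei were sorted on Pcm1, a protein of cardiomyocyte nuclei. The protocol for obtaining cells mentions surgery without saying whether these animals had it, and the labels name no batch and no sex. P-values measure the spread between these pools.

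Vomeronasal receptors are G protein-coupled receptors of the sensory neurons of the vomeronasal organ, the pheromone-sensing structure of the nose. Vmn1r genes have their coding sequence in a single exon, are expressed in apical neurons together with the G protein subunit Gnai2, and bind small molecules such as steroid sulfates. Vmn2r genes are split over several exons, encode a long extracellular ligand-binding domain, are expressed in basal neurons with Gnao1, and bind peptides and proteins. A neuron expresses a single receptor of its class, joined in Vmn2r neurons by a broadly co-expressed member such as Vmn2r1, and the genes lie in tandem clusters that evolved by repeated duplication. Heart muscle is not known to use these receptors.

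The stretches below are the 250 bases upstream of the start that the RefSeq promoter table (GRCm38.p6) gives for each gene, 5′ to 3′. This start lies inside the RefSeq bounds of the gene, not at its end, for 5 of 78 Vmn1r and 7 of 27 Vmn2r genes; of the 5 genes shown this holds for Vmn2r4, by 5263 bases. They are shown for the 3 Vmn1r genes whose TSS region passed the test between P1 and P56 and have a sequence in the table, and for the Vmn2r genes with the smallest p from P1 to P14 (Vmn2r4) and from P1 to P56 (Vmn2r61). CG dinucleotides are in capitals and all other bases in lower case. In that order they lie at chr6:57257899-57258148 (plus strand), chr6:89845616-89845865 (minus strand), chr13:22278067-22278316 (plus strand), chr3:64410058-64410307 (minus strand) and chr7:42259803-42260052 (plus strand).
Vmn1r15: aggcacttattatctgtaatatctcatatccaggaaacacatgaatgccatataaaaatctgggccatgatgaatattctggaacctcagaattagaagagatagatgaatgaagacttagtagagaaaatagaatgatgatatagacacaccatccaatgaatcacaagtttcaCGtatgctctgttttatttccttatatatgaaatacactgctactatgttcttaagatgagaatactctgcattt
Vmn1r42: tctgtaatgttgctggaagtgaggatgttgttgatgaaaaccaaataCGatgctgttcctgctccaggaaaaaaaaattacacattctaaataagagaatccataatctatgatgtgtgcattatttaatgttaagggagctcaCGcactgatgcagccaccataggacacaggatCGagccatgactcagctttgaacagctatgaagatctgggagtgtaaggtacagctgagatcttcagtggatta
Vmn1r195: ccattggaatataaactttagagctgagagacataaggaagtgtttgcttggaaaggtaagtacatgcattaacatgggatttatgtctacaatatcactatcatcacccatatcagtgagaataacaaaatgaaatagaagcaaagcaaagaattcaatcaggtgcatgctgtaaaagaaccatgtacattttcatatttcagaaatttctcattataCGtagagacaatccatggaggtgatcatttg
Vmn2r4: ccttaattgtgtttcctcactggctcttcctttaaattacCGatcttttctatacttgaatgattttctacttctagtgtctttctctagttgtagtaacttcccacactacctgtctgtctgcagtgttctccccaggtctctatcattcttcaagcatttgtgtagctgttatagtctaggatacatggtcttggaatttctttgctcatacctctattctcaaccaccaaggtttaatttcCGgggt
Vmn2r61: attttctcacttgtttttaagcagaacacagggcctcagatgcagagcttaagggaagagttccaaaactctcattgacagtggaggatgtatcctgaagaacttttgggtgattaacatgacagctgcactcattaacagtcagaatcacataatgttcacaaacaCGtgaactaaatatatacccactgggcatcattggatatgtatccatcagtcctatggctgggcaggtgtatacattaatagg
Each holds 1 to 3 CG dinucleotides, and the GC content of these upstream stretches ranged from 32.8% in Vmn1r15 to 40.8% in Vmn1r42 and Vmn2r61.

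A promoter sequence was found for 105 of the 116 members, 78 Vmn1r and 27 Vmn2r; the others were Vmn1r16, Vmn1r39, Vmn1r53, Vmn1r56, Vmn1r64, Vmn1r89, Vmn1r210, Vmn1r214, Vmn1r218, Vmn1r230 and Vmn2r77. Over the whole 300 bases of each entry, from 250 before to 50 after the start, median GC content was 35.5% in Vmn1r and 40.0% in Vmn2r genes, against 56.3% over the 15225 genes of the TSS table with an entry. The median number of CG dinucleotides was 1 in either class and 13 over all genes. No CG at all was found in 27 of 78 Vmn1r promoters (34.6%) and 9 of 27 Vmn2r promoters (33.3%), against 4.17% of all. The letters TATAAA, the core of a TATA box, searched on both strands, occurred in 33.3% of Vmn1r, 37.0% of Vmn2r and 12.1% of all promoters. CCAAT, searched the same way, was in 48.7% of Vmn1r, 18.5% of Vmn2r and 37.6% of all promoters. TAAT, the core letters of many homeodomain sites, occurred in 97.4%, 85.2% and 51.8%, and the letters are more frequent by chance in AT-rich DNA. The first 3 bases at the RefSeq start were ATG in 62 of 78 Vmn1r and 22 of 27 Vmn2r entries, against 6.05% of all genes, so most of these entries begin at the start codon. The authors' annotation and the width of their TSS regions are not stated, so the counted regions may differ from these windows.

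TSS counts per library totalled 481217 to 2167369, with P14 the shallowest stage. CPM below are counts relative to the library total scaled with the TMM factors of edgeR, and log2 changes are those of its fit. The 8 cardiomyocyte markers had a median level of 84.4 CPM. From P1 to P56 edgeR called 4 of them higher, against 1.72% of all regions. In 1 of the 8 all P56 libraries lay above P1, and the 4 called were highest in P56 replicate 2. Summed, the 8 had 397 to 777 CPM in the P1 libraries and 681 to 1774 in those of P56. The markers of 6 other cell types were all listed. No deposited region averaged under 10 counts, so none of them could be at 0. The 8 genes of the vomeronasal and olfactory neuron list summed to 303 to 332 CPM in the P1 libraries, 344 to 426 in those of P14 and 278 to 393 in those of P56. Accessible chromatin is not expression, and a marker with counts does not show its cell type. The top 10% of TSS regions held a mean of 32.4% of counts in the P1 libraries, 34.5% in those of P14 and 36.0% in those of P56, and the part of this share in the results for low regions such as these was not tested.

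The receptor regions lay near the bottom of the table. No deposited TSS region averaged under 10 counts per library, and the members' means were 10 to 37.8. Of the 116, 88 (75.9%) were under 15 counts, against 22.6% of all regions. Median mean counts were 12.9 for Vmn1r, 11.8 for Vmn2r and 22.7 for all regions. RefSeq lists 231 Vmn1r and 126 Vmn2r genes by the same rule, so the table holds 38.1% and 22.2% of them. P1 libraries supplied 50.2% of all TSS counts, so a gene with little accessibility passed the floor more easily where it was high at P1. P1 libraries held 61.4% of the Vmn1r and 62.5% of the Vmn2r counts. What the members below the floor did is not analysed here, and the medians and counts over the listed members describe those listed.

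Both classes had their highest summed TSS accessibility at P1. The 88 Vmn1r regions together reached 1330, 1143 and 1260 CPM in the 3 P1 libraries, 971, 865 and 930 at P14, and 877, 803 and 800 at P56. The P1 libraries were all above those of the later stages, and the P14 libraries overlapped with P56. Means were 1244 ± 94.3 (SD, n = 3), 922 ± 53.5 and 827 ± 43.2, so that P14 was at 74.1% and P56 at 66.4% of P1. The 28 Vmn2r regions summed to 376, 332 and 387 CPM at P1, 275, 240 and 268 at P14, and 215, 240 and 227 at P56. Again no P1 library overlapped with a later one. Their means were 365 ± 29.3, 261 ± 18.5 and 227 ± 12.6, or 71.6% of P1 at P14 and 62.3% at P56.

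**Figure D1:**
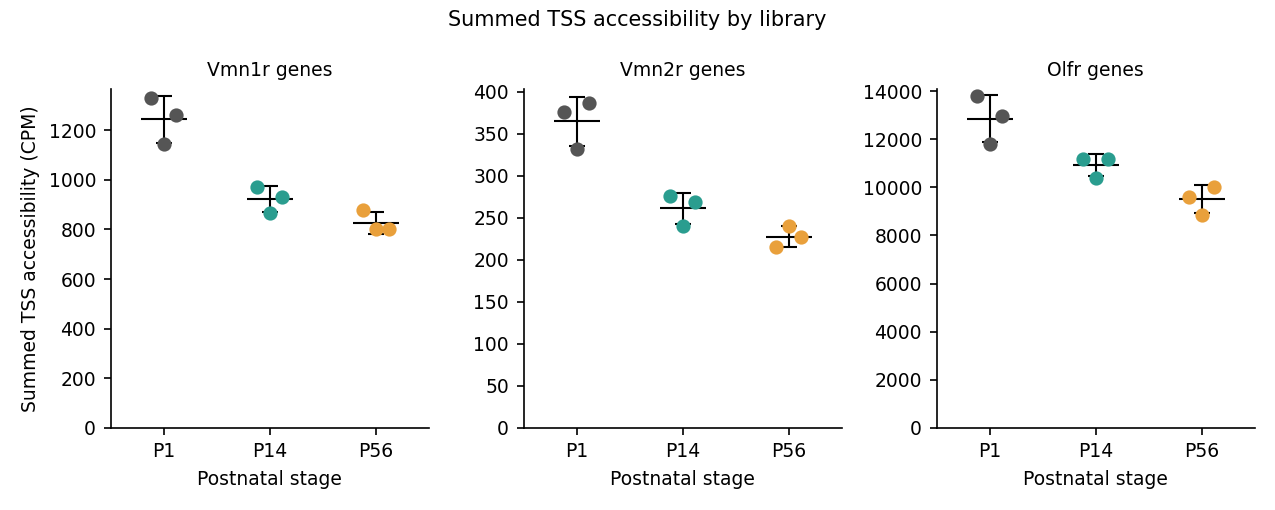
Summed TSS accessibility in CPM (linear axes from 0, different ranges) of the Vmn1r, Vmn2r and olfactory receptor (Olfr) genes in the 3 libraries of P1, P14 and P56. Points are libraries, the horizontal bar is the mean and the whiskers are ± 1 SD; in each panel the 3 P1 libraries are the highest.

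The proportion of the classes overlapped between stages. For summed Vmn2r over summed Vmn1r CPM the ratio at P1 was 0.293 ± 0.0124 (SD, n = 3), followed by 0.283 ± 0.00526 (P14) and 0.276 ± 0.0277 (P56), and the libraries of the 3 stages overlapped. The median CPM over all TSS regions was 18.9, 19.8 and 18.4 at the 3 stages. Olfactory receptors, the large receptor family of the main olfactory epithelium, summed to 12851 ± 987 CPM at P1 and 9496 ± 581 at P56, or 73.9% of P1. The 96 listed vomeronasal receptor pseudogenes were at 65.9% of their P1 level at P56. By gene, the mean was highest at P1 in 76 of 88 Vmn1r and 22 of 28 Vmn2r genes and lowest at P1 in 0 of either class. The same order was not counted over all regions. Of regions with a mean count of 10 to under 15, 78.7% had a log2 change below 0 from P1 to P56. From P1 to P14 it was 70.2%, so the order is not particular to the receptors. P56 was the lowest stage in 56 Vmn1r and 18 Vmn2r genes, and P14 in 32 and 10.

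From P1 to P56, 4 Vmn1r genes fell and no Vmn2r gene passed the test (edgeR, adjusted p below 0.05 over 33747 regions), with 114 of the 116 members tested; Vmn1r11 and Vmn1r234 were below edgeR's filter. The background share of regions called lower was 0.806%, that of regions called higher 1.72% and that of either direction 2.53%. At an unadjusted p below 0.05, 36 of 86 Vmn1r and 13 of 28 Vmn2r genes were lower at P56 and none was higher, against 10.3% of all regions lower and 11.3% higher. The 3 P56 libraries all lay under the 3 P1 libraries in 42 Vmn1r and 12 Vmn2r genes. The share was 13.2% of all regions and 24.9% of those with a mean count of 10 to under 15. Of the 7560 tested regions in that band, 132 were called lower. Members near the floor of 10 counts were listed more easily where they were high at P1. The counts of falling members are thus not independent of the listing, and how much it adds to them was not tested. The median log2 change was -0.66 in Vmn1r and -0.67 in Vmn2r genes, against -0.01 over all regions, -0.51 in olfactory receptors and -0.63 in the pseudogenes. The value was below 0 in 82 of 86 Vmn1r and 28 of 28 Vmn2r genes, against 50.7% of all regions. DESeq2's Wald test called 0 members, with 23 at an unadjusted p below 0.05, but gave 112 of the 114 no adjusted p; limma-voom called 1, with 42.

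Regions with few counts were lower at P56 across the table, and the members had few counts. Over all regions with a mean count of 10 to under 15, the median log2 change was -0.37, and 78.7% were below 0. It was -0.20 from 15 to under 20 counts, 0.10 from 20 to under 50 and 0.26 from 50 upward. In the same first 3 bands Vmn1r genes had medians of -0.70, -0.60 and -0.44, and Vmn2r genes -0.75, -0.28 (3 genes) and -0.53 (2 genes). All 11 members with a mean count of 20 to under 50 were below 0, in a band where 40.2% of all regions were. That share was higher among AT-rich regions of the band. It was 91.4% under 35% promoter GC, 80.6% from 35 to under 40% and 64.6% from 40 to under 45%. With offsets from a loess curve of each library on mean abundance, the medians were -0.29 for Vmn1r and -0.34 for Vmn2r, and edgeR called 0 members (14 at an unadjusted p below 0.05). That fit called 0.649% of all regions, 98 lower and 121 higher. The share of all regions at the unadjusted p was not counted.

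**Figure D2:**
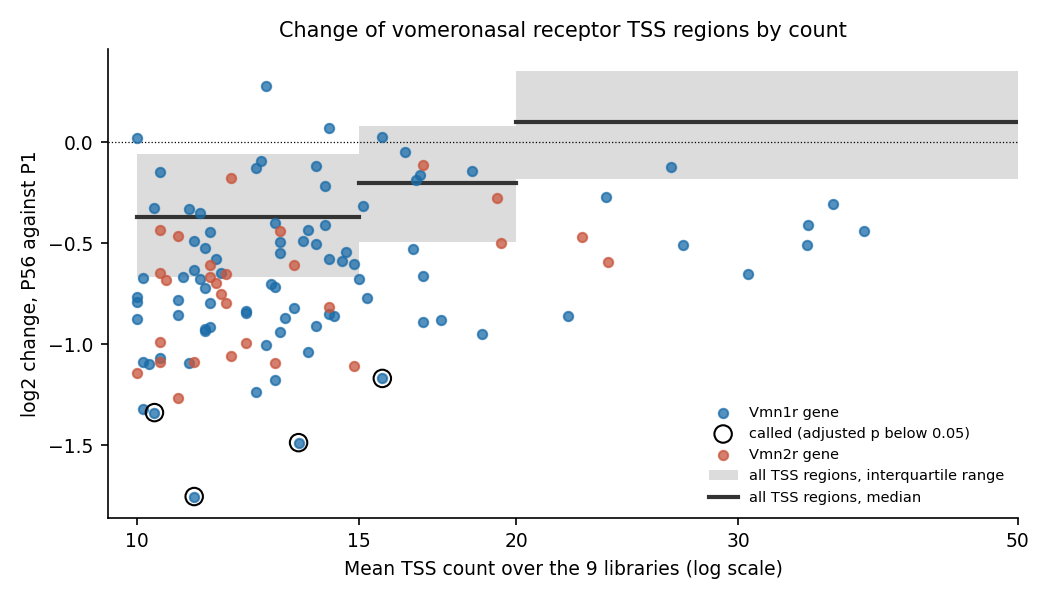
Log2 change in TSS accessibility from P1 to P56 (linear axis) against the mean count over 9 libraries (log axis) for 86 Vmn1r and 28 Vmn2r genes, with the 4 called genes circled. Black lines and grey boxes are the median and the interquartile range of all TSS regions in 3 bands of mean count; most members lie below the black lines.

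The log2 change also moved with promoter GC content across the table. Over all tested regions with a RefSeq promoter, the median log2 change from P1 to P56 was -0.55 under 35% GC (394 regions, 95.2% below 0), -0.48 from 35 to under 40%, -0.26 from 40 to under 45%, -0.07 from 45 to under 50%, and 0.26 at 60% and above. Vmn1r genes had medians of -0.77 (29 genes), -0.58 (33 genes) and -0.60 (12 genes) in the first 3 bands. Vmn2r genes had -0.28 (3 genes), -0.63 (10 genes) and -0.75 (13 genes). Over all regions with a mean count under 15, the medians in these GC bands were -0.61, -0.57 and -0.47. The shares below 0 were 96.7%, 91.4% and 84.4%. With loess offsets on promoter GC, chosen after seeing the data, the median was -0.18 in Vmn1r and -0.47 in Vmn2r genes, and edgeR called 0 of 103 members (11 at an unadjusted p below 0.05). That fit covered 15218 regions and called 0.867% of them, 34 lower and 98 higher. Their share at the unadjusted p was not counted. Whether base composition, low counts or the stages themselves set the members' values was not tested.

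**Figure D3:**
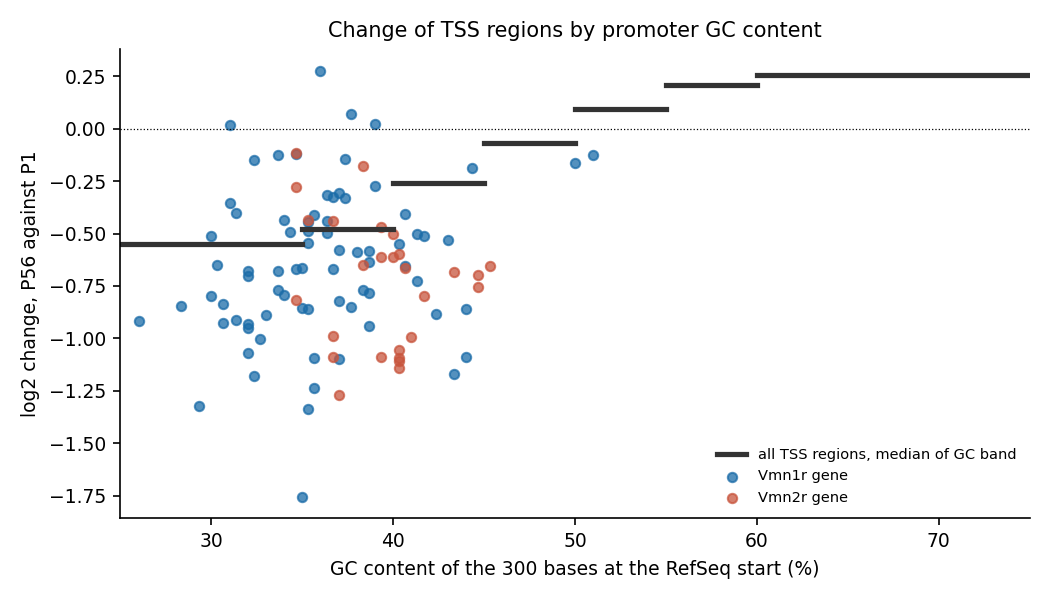
Log2 change in TSS accessibility from P1 to P56 against the GC content of the 300 bases at the RefSeq start, for the Vmn1r and Vmn2r genes with a promoter sequence. Black lines are medians of all TSS regions in GC bands; they go from -0.55 under 35% GC to 0.26 at 60% and above, and the members lie between 26% and 51% GC.

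The 4 Vmn1r genes that fell are receptors for which no ligand is given here. Vmn1r15 (ENSMUSG00000058731, chr6:57258149-57259048) had 13.0, 14.4 and 13.1 CPM at P1, 5.55, 6.33 and 6.15 at P14, and 4.40, 3.76 and 3.50 at P56. The 3 stages did not overlap, and these levels rest on 30, 21 and 25 counts at P1 but 3 to 5 in each later library. Vmn1r15 thus passed the floor of 10 counts through its P1 libraries. The fall was 3.37-fold from P1 to P56, a log2 change of -1.75 ± 0.37 (SE; edgeR, adjusted p = 0.0119). Its log2 change from P1 to P14 was -1.17 ± 0.41 (edgeR, adjusted p = 0.497). Without P56 replicate 2 the fall was not called (edgeR, adjusted p = 0.0656), and it was called in the other 8 fits that left out a library. With abundance offsets its log2 change was -1.17 (edgeR, adjusted p = 0.155), and with GC offsets -1.27 (edgeR, adjusted p = 0.0976).

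Vmn1r64 (ENSMUSG00000058399, chr7:5883580-5884542) had 15.6, 21.9 and 9.98 CPM at P1, 11.1, 4.22 and 8.19 at P14, and 5.29, 3.01 and 9.32 at P56. The highest P56 library lay just under the lowest P1 library. Its log2 change from P1 to P56 was -1.49 ± 0.40 (SE; edgeR, adjusted p = 0.0381). Vmn1r42 (ENSMUSG00000068232, chr6:89844518-89845615) had 18.3, 13.7 and 16.3 CPM at P1, 10.0, 16.9 and 14.3 at P14, and 7.05, 9.03 and 4.66 at P56. Its P14 libraries overlapped with P1 and lay above P56, and its log2 change from P1 to P56 was -1.17 ± 0.33 (edgeR, adjusted p = 0.0463). Vmn1r195 (ENSMUSG00000069296, chr13:22278317-22279404) had 13.0, 9.59 and 11.5 CPM at P1, 7.77, 4.22 and 6.15 at P14, and 4.40, 4.51 and 4.66 at P56. Its P1 libraries lay above all others, and its log2 change from P1 to P56 was -1.34 ± 0.38 (edgeR, adjusted p = 0.049). These 3 calls were near the threshold. Like Vmn1r15, Vmn1r64 and Vmn1r195 had mean counts of 10 to under 15 and their highest mean level at P1. Such genes were listed more easily where P1 was high, so their falls are not independent of the listing. P56 lay below P1 without overlap in 24.9% of all regions of that band. Vmn1r64 was still called without P1 replicate 3 or without P56 replicate 3 and lost without any of the other 7 libraries, and Vmn1r42 and Vmn1r195 were lost without any of the 9. Over these fits edgeR's adjusted p was 0.0186 to 0.192 for Vmn1r64, 0.0604 to 0.135 for Vmn1r42 and 0.0627 to 0.16 for Vmn1r195.

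**Figure D4:**
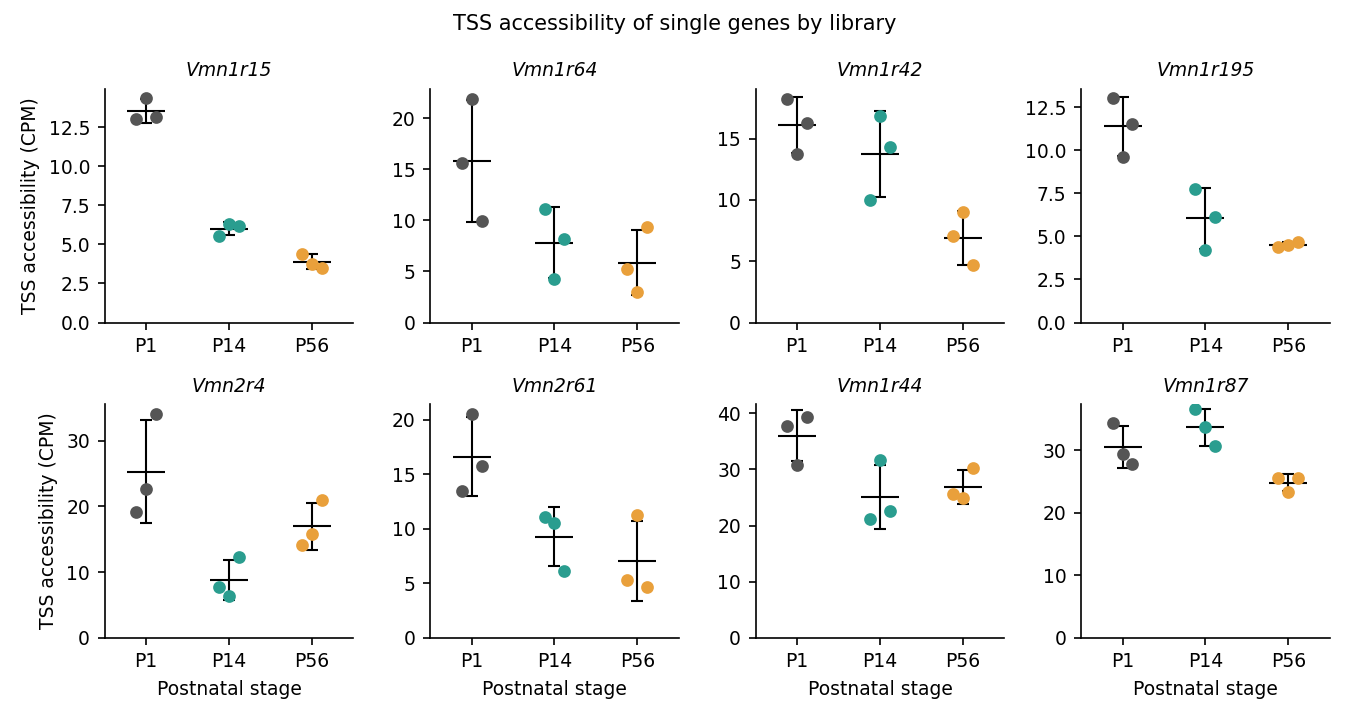
TSS accessibility in CPM (linear axes from 0, different ranges) of the 4 called Vmn1r genes, of Vmn2r4 and Vmn2r61, and of 2 of the 3 Vmn1r genes with the highest level, in the 3 libraries of P1, P14 and P56. Points are libraries, the horizontal bar is the mean and the whiskers are ± 1 SD; Vmn1r15 goes from 13.0 to 14.4 CPM at P1 to 3.50 to 4.40 at P56, and Vmn2r4 has its lowest libraries at P14.

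Among Vmn2r genes the smallest p from P1 to P56 was that of Vmn2r61 (ENSMUSG00000090967, chr7:42260053-42300755). It had 13.5, 20.6 and 15.7 CPM at P1, 11.1, 10.5 and 6.15 at P14, and 5.29, 11.3 and 4.66 at P56. All P56 libraries were under the P1 libraries, and the log2 change was -1.11 ± 0.34 (SE, edgeR, adjusted p = 0.0661). The same order held in 24.9% of all regions with a mean count of 10 to under 15, the band of this gene. Genes of that band were listed more easily where P1 was high. Vmn2r12 had 11.4 ± 2.89 CPM (SD, n = 3) at P1 and 4.69 ± 2.07 at P56, a log2 change of -1.27 ± 0.41 (edgeR, adjusted p = 0.0777). Vmn2r120 had 14.4 ± 3.97 and 6.60 ± 1.17 CPM, a log2 change of -1.09 ± 0.35 (edgeR, adjusted p = 0.0777).

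From P1 to P14 edgeR called 0 of the 114 members, and over all regions 4 (0.0119%), all higher. At an unadjusted p below 0.05, 15 Vmn1r and 8 Vmn2r genes were lower and none was higher, against 3.67% of all regions lower and 4.92% higher. DESeq2 and limma-voom also called 0 members, with 9 and 20 at an unadjusted p below 0.05. The median log2 change was -0.39 in Vmn1r and -0.63 in Vmn2r genes, against 0.00 over all regions, -0.27 in olfactory receptors and -0.35 in the pseudogenes. In the band of 10 to under 15 counts it was -0.40 in Vmn1r and -0.63 in Vmn2r genes, against -0.23 over all regions of that band, of which 70.2% were below 0. Under 35% promoter GC it was -0.37 in Vmn1r genes against -0.35 over all regions, and from 35 to under 40% it was -0.40 in Vmn1r and -0.82 in Vmn2r genes against -0.30. With abundance offsets the medians were -0.20 in Vmn1r and -0.21 in Vmn2r genes, and with GC offsets -0.15 and -0.45. The P14 libraries all lay under the P1 libraries in 26 of 86 Vmn1r and 11 of 28 Vmn2r genes, against 7.87% of all regions. The 3 P14 libraries had a median of 4 to 9 counts per Vmn1r gene, so a change of single genes was hard to detect there. The difference between the class medians was not tested.

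Family C of the Vmn2r genes, the Vmn2r1 to Vmn2r7 group that is co-expressed with other Vmn2r receptors, lies on chromosome 3, and 5 of its 7 genes were listed. Vmn2r4 (ENSMUSG00000092049, chr3:64388561-64415320) had 19.1, 22.6 and 34.1 CPM at P1, 7.77, 6.33 and 12.3 at P14, and 14.1, 15.8 and 21.0 at P56. The P14 libraries were below all others, while P1 and P56 overlapped. Its log2 change from P1 to P14 was -1.54 ± 0.37 (SE; edgeR, adjusted p = 0.313), and from P14 to P56 0.94 ± 0.42 (edgeR, adjusted p = 0.446). In a fit that dropped P1 replicate 1 and P56 replicate 2 together, the value from P1 to P14 was called, at -1.75 (edgeR, adjusted p = 0.00218). That fit called 0.912% of all regions from P1 to P14 (100 lower and 193 higher), against 0.0119% with all libraries.

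Vmn2r2, another member of the group, had 22.2 ± 2.65 CPM (SD, n = 3) at P1, then 10.6 ± 5.57 (P14) and 15.9 ± 5.81 (P56), and its log2 change from P1 to P14 was -0.997 ± 0.36 (edgeR, adjusted p = 0.506). Vmn2r1, whose product is found in most basal vomeronasal neurons, had 12.3 ± 1.22, 5.66 ± 3.17 and 5.98 ± 2.61 CPM, with all P1 libraries above the later ones and a log2 change of -1.09 ± 0.38 from P1 to P56 (edgeR, adjusted p = 0.0971). It had 31, 18 and 21 counts at P1 and 1 to 9 in each later library, so it passed the floor of 10 counts through P1. Its separation is thus not independent of the listing. P56 lay below P1 without overlap in 24.9% of all regions with a mean count of 10 to under 15. Vmn2r3 and Vmn2r6 overlapped between all stages, with 10.0 ± 2.30 and 17.9 ± 3.86 CPM at P1 and 8.23 ± 6.30 and 13.2 ± 5.68 at P56. The 5 genes together had 87.8 ± 12.2 CPM at P1, 52.5 ± 12.5 at P14 and 60.2 ± 4.32 at P56; the P1 libraries did not overlap with either later stage, and the later stages overlapped.

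Other genes with small p from P1 to P14 were Vmn1r221, with 14.2 ± 2.70 CPM (SD, n = 3) at P1 and 5.66 ± 3.17 at P14 (log2 change -1.26 ± 0.43; edgeR, adjusted p = 0.492), and Vmn1r43, with 15.1 ± 3.27 and 7.42 ± 2.73 CPM (log2 change -1.12 ± 0.40; edgeR, adjusted p = 0.506). Vmn2r118 had 13.5 ± 5.09 and 6.30 ± 3.42 CPM, and its P1 and P14 libraries overlapped.

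From P14 to P56 edgeR called 0 members and 1 of all regions (0.00296%). At an unadjusted p below 0.05, 2 Vmn1r genes were lower, and 1 Vmn1r and 1 Vmn2r gene were higher, against 4.04% of all regions lower and 6.04% higher. DESeq2 and limma-voom called 0 members, with 1 and 6 at that p. Median log2 changes were -0.14 in Vmn1r and -0.32 in Vmn2r genes, against -0.02 over all regions. The lower Vmn1r genes were Vmn1r180, with 13.0 ± 4.72 CPM (SD, n = 3) at P14 and 5.36 ± 0.758 at P56, and Vmn1r228, with 11.4 ± 3.70 and 5.87 ± 1.09 CPM. The higher Vmn1r gene was Vmn1r16, with 4.70 ± 4.13 CPM at P14, where a library had 0 counts, and 11.6 ± 5.94 at P56. Vmn2r90 had 21.2 ± 3.60 CPM at P14 and 12.9 ± 3.31 at P56, without overlap, and Vmn2r23 12.0 ± 2.79 and 5.46 ± 4.43, with overlap.

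The 3 Vmn1r genes with the highest levels had smaller log2 changes than the median of their class. Vmn1r44 had 37.8, 30.8 and 39.4 CPM at P1, 21.1, 31.6 and 22.5 at P14, and 25.6, 24.8 and 30.3 at P56, the highest P1 level of the Vmn1r genes named here. Its log2 change from P1 to P56 was -0.44 ± 0.25 (SE; edgeR, adjusted p = 0.299). Vmn1r49, in the same chromosome 6 cluster, had 31.6 ± 2.22 CPM (SD, n = 3) at P1 and 23.6 ± 4.46 at P56. Vmn1r87 on chromosome 7 had 30.5 ± 3.38 CPM at P1, 33.7 ± 2.96 at P14 and 24.8 ± 1.31 at P56, with the P56 libraries below all others. Its mean at P14 was not below P1, unlike that of the other 2. At the other end, Vmn1r232 and Vmn1r39 averaged 7.29 and 7.48 CPM over the 9 libraries, and Vmn2r10, Vmn2r82 and Vmn2r63 7.35, 7.53 and 7.60. Of these, Vmn1r39 overlapped between P1 and P56, and the other 4 did not. P56 lay below P1 without overlap in 13.2% of all regions and in 24.9% of those with a mean count of 10 to under 15. Near the floor a gene was listed more easily where it was high at P1, so this count is not independent of the listing.

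Of a panel of 6 receptors with a known ligand, 3 were listed. Vmn1r51, a receptor of the urinary ketone 2-heptanone, had 22.8 ± 3.87 CPM (SD, n = 3) at P1, then 21.3 ± 3.93 (P14) and 21.1 ± 3.06 (P56), with overlap between all stages. Vmn1r85 and Vmn1r89 respond to sulfated steroids. Vmn1r85 had 21.2 ± 1.18, 17.3 ± 2.92 and 17.1 ± 5.96 CPM, and Vmn1r89 11.5 ± 2.04, 5.34 ± 2.92 and 11.2 ± 3.18. Log2 changes from P1 to P56 were -0.13 ± 0.26 for Vmn1r51, -0.27 ± 0.27 for Vmn1r85 and -0.09 ± 0.33 for Vmn1r89 (SE), none called by edgeR (smallest adjusted p = 0.568). Vmn2r116, Vmn2r26 and Vmn2r81, also in the panel, are not analysed here.

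The clusters, taken as runs of receptor genes of either class with gaps of under 1 Mb in RefSeq, differed in how many genes the table held. In the chromosome 13 cluster (chr13:22087878-23250323) 27 of 35 Vmn1r genes were listed, and in the chromosome 7 cluster at chr7:20101158-24055691 4 of 86. The chromosome 13 cluster summed to 350 ± 15.5 CPM (SD, n = 3) at P1, then 252 ± 21.2 (P14) and 237 ± 20.0 (P56), and its genes had a median log2 change from P1 to P56 of -0.66. On chromosome 6, 15 of 28 genes were listed at chr6:56923914-58472878, the cluster of Vmn1r15, with a median of -0.88. A further 11 of 15 were listed at chr6:89711261-90270053, the cluster of Vmn1r42, Vmn1r44 and Vmn1r49, with a median of -0.51. The chromosome 17 cluster had 9 of 14 genes listed, 8 of them tested, and a median of -0.78. In the chromosome 7 cluster at chr7:10273828-13220289 the median of 11 tested Vmn1r genes was -0.35. No cluster of 3 or more listed Vmn1r genes had a median above 0, and the summed P56 libraries were below those of P1 in each of these clusters other than the chromosome 7 cluster with 4 of 86 genes.

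Vmn2r genes were listed at 11 of 52 on chromosome 7, 3 of 32 on chromosome 17, 4 of 11 on chromosome 5, 3 of 9 on chromosome 6, 2 of 8 on chromosome 10 and 5 of 8 on chromosome 3. Median log2 changes from P1 to P56 were -0.75, -0.61, -0.80, -0.65, -1.07 and -0.50 in that order. From P1 to P14 the median of the chromosome 3 genes was -0.997 and that of the chromosome 6 genes -0.06. Differences between clusters were not tested.

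A copy of at least 90% identity was found for 9 of 78 listed Vmn1r genes and 12 of 27 listed Vmn2r genes. The promoter of each family gene was compared with those of all others, with identity as the share of 300 bases left after counting the smallest number of substitutions, insertions and deletions. The lowest identity to a nearest promoter was 47.3%, that of Vmn2r29 with Vmn1r51, a gene of the other class. The identity of unrelated promoters was not measured, so a low value need not mark a copy. Listed Vmn1r promoters had a median identity of 73.0% to their nearest copy, and the 127 Vmn1r promoters of RefSeq that were not listed had 99.0%. For Vmn2r the medians were 85.0% among 27 listed and 92.7% among 89 not listed. An exact copy elsewhere was found for 54 of the unlisted Vmn1r and 8 of the unlisted Vmn2r promoters and for 0 listed ones. By identity to the nearest copy, 61.9% of 84 Vmn1r genes were listed under 80%, 81.0% of 21 from 80 to under 90%, and 9.0% of 100 at 90% or more. In Vmn2r genes these shares were 47.6% of 21, 16.1% of 31 and 18.8% of 64. How reads that map to several places were treated is not given in the sources used here.

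**Figure D5:**
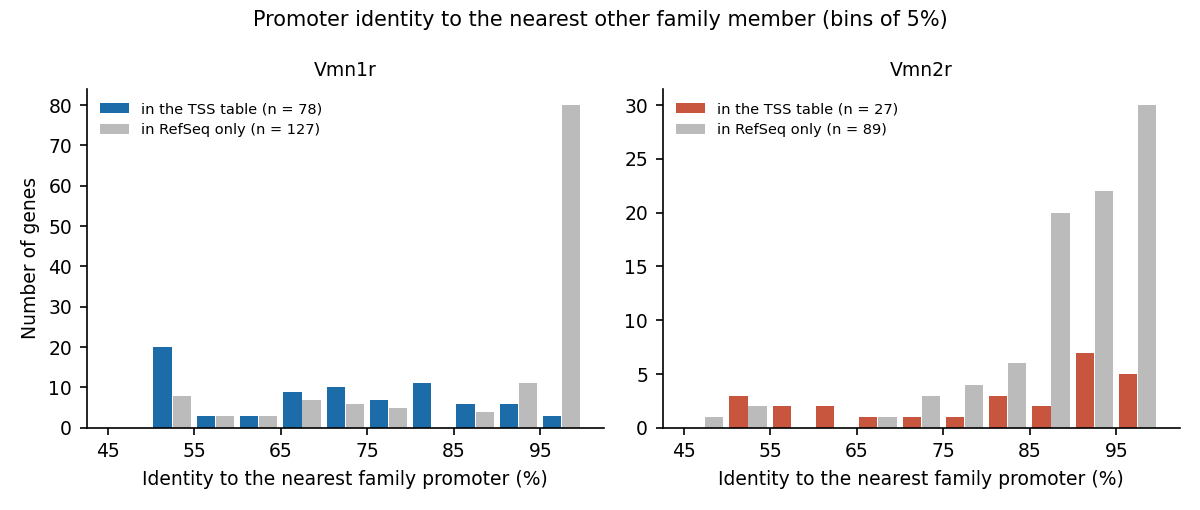
Number of Vmn1r and Vmn2r genes by the identity of their promoter to the nearest other family promoter, in bins of 5%, for genes in the TSS table (coloured) and genes in RefSeq only (grey). Most Vmn1r genes outside the table are in the highest bin, where 3 listed genes lie.

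Vmn1r221 shows how close the copies are. Among the named Vmn1r genes it has the most similar copy, Vmn1r189, at 97.7% identity over 300 bases, and Vmn1r189 was not listed. The 250 bases upstream of each start are given below, 5′ to 3′, with the bases that differ between them in capitals, at chr13:23217123-23217372 (plus strand) and chr13:22102666-22102915 (minus strand).
Vmn1r221: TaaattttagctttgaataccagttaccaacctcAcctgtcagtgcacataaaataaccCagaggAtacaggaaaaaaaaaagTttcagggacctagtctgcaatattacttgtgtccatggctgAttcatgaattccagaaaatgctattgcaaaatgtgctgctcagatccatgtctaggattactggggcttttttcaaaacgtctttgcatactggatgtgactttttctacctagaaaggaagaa
Vmn1r189: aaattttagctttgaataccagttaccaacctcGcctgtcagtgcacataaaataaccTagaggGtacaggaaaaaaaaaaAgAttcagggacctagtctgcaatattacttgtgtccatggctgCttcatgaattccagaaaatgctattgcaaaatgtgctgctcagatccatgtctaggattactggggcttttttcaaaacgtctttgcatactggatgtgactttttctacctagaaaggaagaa
These 250 bases differ by 7 substitutions, insertions or deletions. Reads from either gene can fall in stretches that the other shares, so the values of Vmn1r221 are uncertain. The same holds for Vmn2r6, which is 99.3% identical to Vmn2r7, for Vmn2r12, 95.7% identical to Vmn2r13, and for Vmn2r4, which differs from Vmn2r6 by 15 of 300 bases. In the bands under 80%, from 80 to under 90% and from 90% identity, the median log2 change from P1 to P56 was -0.67, -0.59 and -0.79 in Vmn1r and -0.54, -0.67 and -0.78 in Vmn2r genes.

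Called peaks were scarce at the receptors. Of the 25915 peaks in the authors' list, 19 lay within 5 kb of a member, at 8 Vmn1r genes (9.09%) and 11 Vmn2r genes (39.3%). The share was 9.62% for olfactory receptors, 20.0% for listed protein-coding genes under 2 kb long and 62.5% for all listed protein-coding genes. Vmn2r genes are longer, with a median of 29347 bp against 933 bp, and so offer more room for a peak: 10 of the 19 peaks lay inside a gene, at 1 Vmn1r and 8 Vmn2r genes. From P1 to P56, 18 of the 19 peaks were below 0 with a median log2 change of -0.74, against 0.03 over all peaks, of which 47.6% were below 0. The median mean count was 17.2 in the 19 and 23.7 over all peaks, and peaks of like count were not compared. EdgeR called 0 of the 19, and it called 0.232% of all peaks lower at an adjusted p below 0.05. At an unadjusted p below 0.05, 10 of the 19 were lower. The share of all peaks at that unadjusted p was not counted, so the 10 cannot be set against a background. The peak inside Vmn2r10 (chr5:109000374-109001760) had 23.7 ± 3.60 CPM (SD, n = 3) at P1, then 17.0 ± 5.28 (P14) and 8.68 ± 2.75 (P56) (log2 change from P1 to P56 -1.42 ± 0.41; edgeR, adjusted p = 0.084), the smallest p of the 19. The peak beside Vmn2r61, 4721 bp from the gene, had 24.1 ± 7.69, 32.4 ± 7.64 and 10.6 ± 4.53 CPM (log2 change -1.21 ± 0.40; edgeR, adjusted p = 0.122).

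Genes that work with the receptors were taken as lists. Of 15 genes of vomeronasal signal transduction, all listed and tested, 1 rose from P1 to P56 and none fell (edgeR). Over all regions 1.72% were called higher and 0.806% lower. The median log2 change of the 15 was 0.02. Of all 6331 regions with a mean count of 50 and over, 435 were called higher, with a median of 0.26. The gene that rose was Gnai2, the G protein subunit of Vmn1r neurons, which many other cells also use, from 116 to 167 CPM (log2 change 0.53 ± 0.14 SE; edgeR, adjusted p = 0.0416). Gnao1, the subunit of Vmn2r neurons, had 122 CPM at P1 and 123 at P56. Trpc2, the cation channel of vomeronasal neurons, had 18.3 CPM at P1 (log2 change to P56 0.49 ± 0.26; edgeR, adjusted p = 0.267). Rtp2, a chaperone of olfactory receptors, had 25.5 and 14.7 CPM (log2 change -0.78 ± 0.27; edgeR, adjusted p = 0.0981), the smallest p after Gnai2.

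Of the 5 listed formyl peptide receptors, some of which serve as vomeronasal receptors, all were below 0 with a median of -0.81, and none was called; Fpr-rs3 had 13.1 CPM at P1 and 7.37 at P56 and Fpr-rs4 13.3 and 6.59. The H2-M10 family and its partner genes, major histocompatibility proteins that accompany Vmn2r receptors, had a median of -0.24 over 9 genes with none called, and H2-M10.4 went from 23.0 to 15.1 CPM and H2-M10.3 from 15.1 to 9.58. Of 16 tested developmental regulators of olfactory and vomeronasal neurons none was called, and the median was 0.04; Robo2 had 66.2 and 51.2 CPM and Ebf1 43.9 and 33.2. Of 28 genes for pheromone proteins (Esp, Mup and lipocalin genes) 10 were listed, with a median of -0.46 and none called. Mup5 had 23.6 and 14.5 CPM and Mup6 26.8 and 19.1. Beside these lists, the median from P1 to P56 was -0.01 over all regions. It was -0.37 over those with a mean count of 10 to under 15, of which 78.7% were below 0.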

How the data were processed

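The authors deposited unnormalised read counts for 9 libraries, per TSS region and per peak; the submitters' processing notes name GRCm38 as the build, featureCounts 1.4.2 and MACS 1.4.0, and also BWA 0.7.10, bedtools 2.26, SAMtools 1.3.1 and bcl2fastq 2.17.1.14, without their roles. Read filters, TSS width and peak pooling are not given in the sources used here. Under R 4.3.3, edgeR 4.0.16 was run on each whole table with TMM scaling, the default expression filter, 1 coefficient per stage, quasi-likelihood F test, two-sided, Benjamini-Hochberg adjustment over all regions tested, threshold 0.05. The fit was tested on simulated counts. Alternatives used limma 3.58.1 and DESeq2 1.42.0. Positions and promoters came from RefSeq GRCm38.p6, matched by symbol (116 of 116 and 105 of 116). Named genes were, per class, those called, the 3 with the smallest p in each comparison, the 3 highest and 3 lowest in mean CPM, and a ligand and a family C panel; from the other lists, those called and the 2 with the smallest p. The members and lists were chosen with earlier results of these data known. Medians over members carry no test.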

Additional observations from a re-analysis of the deposited data

How the results depend on the processing

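Calls from P1 to P56 depended on the processing. In place of 4, edgeR called 2 members with DESeq2's size factors, 13 with library size alone, 0 with the abundance offsets, 0 of 11 with a mean count of at least 20, 1 with only the 2 stages fitted, 0 at an adjusted p below 0.01 and 0 with promoter GC offsets. Of all regions tested, these settings called 2.12%, 3.25%, 0.649%, 1.38%, 0.547%, 0.261% and 0.867% in that order, against 2.53%. Limma-voom called 1 and DESeq2's Wald test 0, with an adjusted p for 2 of 114. Leaving out a library gave 0 to 3: 3 without P56 replicate 1, 2 without P1 replicate 3 or P56 replicate 3, 0 without P56 replicate 2 and 1 without any other. The share of all regions called moved too. It was 4.50% without P56 replicate 1, 1.95% without P1 replicate 3 and 1.20% without P56 replicate 3. Without P56 replicate 2 it was 0.435%, and without any other library 0.654% to 1.47%. Same-numbered libraries of different stages correlated at -0.0707 to 0.209, and 5 of 9 libraries correlated best with their own number; with the replicate number as a block, 10 were called, in a fit that called 5.87% of all regions (595 lower and 1387 higher) against 2.53%. From P1 to P14 the count was 0 under every setting other than 1 (Vmn2r4) in the fit that dropped P1 replicate 1 together with P56 replicate 2, and from P14 to P56 it was 0 throughout. Library size alone put the median of all regions at -0.14 from P1 to P56, with 319 higher and 778 lower calls in place of 581 and 272.

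Median log2 changes in Vmn1r genes were -0.80 (library size), -0.29 (abundance offsets) and -0.18 (GC offsets) from P1 to P56, and -0.56 to -0.73 over the fits that left out a library. For Vmn2r genes these were -0.34 (abundance) and -0.47 (GC), and -0.63 to -0.80. From P1 to P14 they were -0.20 and -0.15 in Vmn1r and -0.21 and -0.45 in Vmn2r genes, with -1.35 in the Vmn2r genes of at least 20 counts and -0.42 without the 2 libraries named; leaving out 1 library gave -0.47 to -0.31 and -0.69 to -0.46. From P14 to P56 they were -0.0088 in Vmn1r (GC) and 0.67 in the 2 Vmn2r genes of at least 20 counts; leaving out libraries gave -0.27 to -0.093 (the latter without the 2 named) in Vmn1r and -0.35 to -0.060 in Vmn2r genes. Summed levels at P56 were 60.8% (Vmn1r) and 56.9% (Vmn2r) of P1 by library size. Peaks numbered 10 inside genes and 81 within 50 kb.

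Uncalled genes that changed sign from P1 to P56 were Vmn1r16 (0.27 with abundance offsets, 0.00 without P1 replicate 1, 0.03 without P56 replicate 2, 0.25 without both), Vmn1r89 (0.33 with abundance offsets, 0.04 without P1 replicate 3, 0.16 without P56 replicate 2, 0.12 without P1 replicate 1 and P56 replicate 2, and -0.26 to 0.16 over all such fits), Vmn2r3 (0.21 with abundance offsets, -1.31 to 0.26 over fits that left out libraries, the highest without P56 replicate 1, 0.22 with GC offsets), and with GC offsets Vmn2r90 (0.22), Vmn1r87 (0.12), Vmn1r44 (0.0063) and Vmn1r85 (0.10). The other named-gene values gave 788 on the same side, 48 calls lost and 10 gained. Where an alternative moved a value, the cause was not tested. Median counts of 4 to 10.5 per Vmn1r gene in the P14 and P56 libraries limit what can be told of single genes.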

Other observations

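Other chemoreceptor families in the same table had values on the same side from P1 to P56. All 17 bitter taste receptors (Tas2r) were below 0, with a median log2 change of -0.78, and 2 fell (edgeR, adjusted p below 0.05). The 12 tested trace amine receptors (Taar), receptors of volatile amines in the main olfactory epithelium, were also all below 0, with a median of -0.31, and none was called, with 2 at an unadjusted p below 0.05. Of 786 tested olfactory receptors 29 fell and none rose, and of 95 tested vomeronasal receptor pseudogenes 3 fell and none rose. The background share of regions called lower was 0.806%, and 10.3% were lower at an unadjusted p below 0.05. Over all regions 50.7% were below 0. Among the 7560 tested regions with a mean count of 10 to under 15, 1572 were lower at that unadjusted p and 78.7% were below 0.

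Olfactory receptor promoters resembled those of the Vmn1r genes in base composition, with a median GC content of 36.7% over 673 entries and no CG dinucleotide in 32.5% of them.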
